A study of Mus musculus with 60 samples.

Results

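The myogenic bHLH factors are 4 genes, Myod1, Myog, Myf5 and Myf6, and they were followed here among 21938 protein-coding genes as the repressive histone mark H3K27me3 was mapped around each of them. The members were taken by name, and the values of each come from its gene body with 20 kb on either side, in coordinates of the mouse build mm10. The line was C3H 10T1/2, a mouse mesenchymal progenitor line that can be driven into muscle, fat, bone and cartilage fates. All cells carried a lentiviral transgene for a tagged human H3.1 under a constitutive promoter, as H3WT or with arginine replaced by cysteine at a position of the H3 tail (H3R2C, H3R8C, H3R17C or H3R26C), and all of them also kept their own H3 genes. No treatment or differentiation step is given in the labels. CUT&RUN, in which an antibody-tethered nuclease cuts out the bound chromatin for sequencing, was run on 60 samples, 3 for each of 5 genotypes with each of IgG, anti-HA (the tag), anti-H3K4me3 and anti-H3K27me3. The 30 anti-H3K27me3 and anti-HA samples are described here.

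MyoD and Myf5 are the determination factors that commit progenitors to the muscle lineage. Myogenin, the product of Myog, drives the terminal differentiation of myoblasts, and MRF4, the product of Myf6, acts in determination and again in late differentiation and mature fibres. They dimerise with E proteins and bind E-boxes, sites of the form CANNTG. Polycomb repressive complex PRC2 writes H3K27me3, and developmental regulators of lineages that a cell has not entered are a classical place for it. Exogenous MyoD is able to turn cells of this line into muscle.

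Within a group, lists of 2 labelled replicates held identical values and were counted as 1 library. Whether such a list is of 1 sample deposited again or of replicates pooled by the authors is not given in the sources used here. This left 9 independent H3K27me3 libraries (2 each of H3WT, H3R2C, H3R8C and H3R26C, and 1 of H3R17C) and 10 anti-HA libraries. The list of H3R17C replicate 1 was left out because its deposited file name gives another histone mark. Each H3K27me3 list held between 20077 and 24598 peaks, and the lowest total signal in a list ran from 3400 to 8050, so a gene without a peak is below the level of that list and not at 0. The study calls its replicates biologic, but the labels name no separate cultures, so p-values measure only the spread between these libraries. As a check of the label, 12 mesenchymal markers had no H3K27me3 peak within 1 kb of the start site in any library, and the same held for 6 housekeeping genes. Among 12 markers of other cell types, 9 had no such peak in any library, and Neurod1, a neuronal bHLH gene, had one in all 9.

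The 300 bases around the start of Myog and Myf5 are shown because they hold the promoters of a pair of members whose start sites were bare of H3K27me3 in every list. The sequences are those of RefSeq on GRCm38.p6, running from 250 bases before to 50 after the RefSeq start, and 2 of the 4 members were matched in that table. Capitals mark E-boxes (CANNTG, which reads the same way on both strands).
Myog promoter (chr1:134289754-134290053, + strand): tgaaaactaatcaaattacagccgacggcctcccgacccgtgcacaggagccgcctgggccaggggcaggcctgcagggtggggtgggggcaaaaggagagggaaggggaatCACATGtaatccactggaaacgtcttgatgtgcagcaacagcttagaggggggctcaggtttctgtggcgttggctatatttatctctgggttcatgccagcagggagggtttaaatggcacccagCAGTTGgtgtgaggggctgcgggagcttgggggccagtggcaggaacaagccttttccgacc
Myf5 promoter (chr10:107486085-107486384, - strand): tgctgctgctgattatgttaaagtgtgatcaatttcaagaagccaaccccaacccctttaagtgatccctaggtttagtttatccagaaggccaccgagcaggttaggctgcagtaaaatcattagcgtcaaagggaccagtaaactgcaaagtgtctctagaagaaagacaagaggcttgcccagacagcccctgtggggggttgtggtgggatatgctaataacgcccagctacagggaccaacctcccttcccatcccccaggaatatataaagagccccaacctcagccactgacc
The Myog promoter held 2 E-boxes and the Myf5 promoter 0, while 72.3% of the 32851 promoters of the same length held at least 1. A match describes the letters and not a bound site. The Myog promoter was also the richer in CpG, with 9 CpG against 3 in Myf5 and a median of 7 over all promoters.

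Myod1 was the member that carried H3K27me3 at its start site. The gene lies at chr7:46376474-46379099 on the + strand, and a peak stood over its start site in 9 of 9 libraries. Such a peak in all 9 libraries was seen for 3.91% of the 21938 genes. Myog (chr1:134289989-134292548, + strand) had no peak within 1 kb of its start site in any library but had peaks elsewhere in its window in all 9, the nearest of them 1.29 to 8.21 kb from the start. Myf5 (chr10:107482908-107486134, - strand) and Myf6 (chr10:107492853-107494737, - strand) had no H3K27me3 peak anywhere in their windows in any library, as was the case for 55.4% of the genes. Those last 2 genes are neighbours with start sites 8.60 kb apart, and their windows share 33.3 kb, so they report on a common locus and are not independent.

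**Figure D1:**
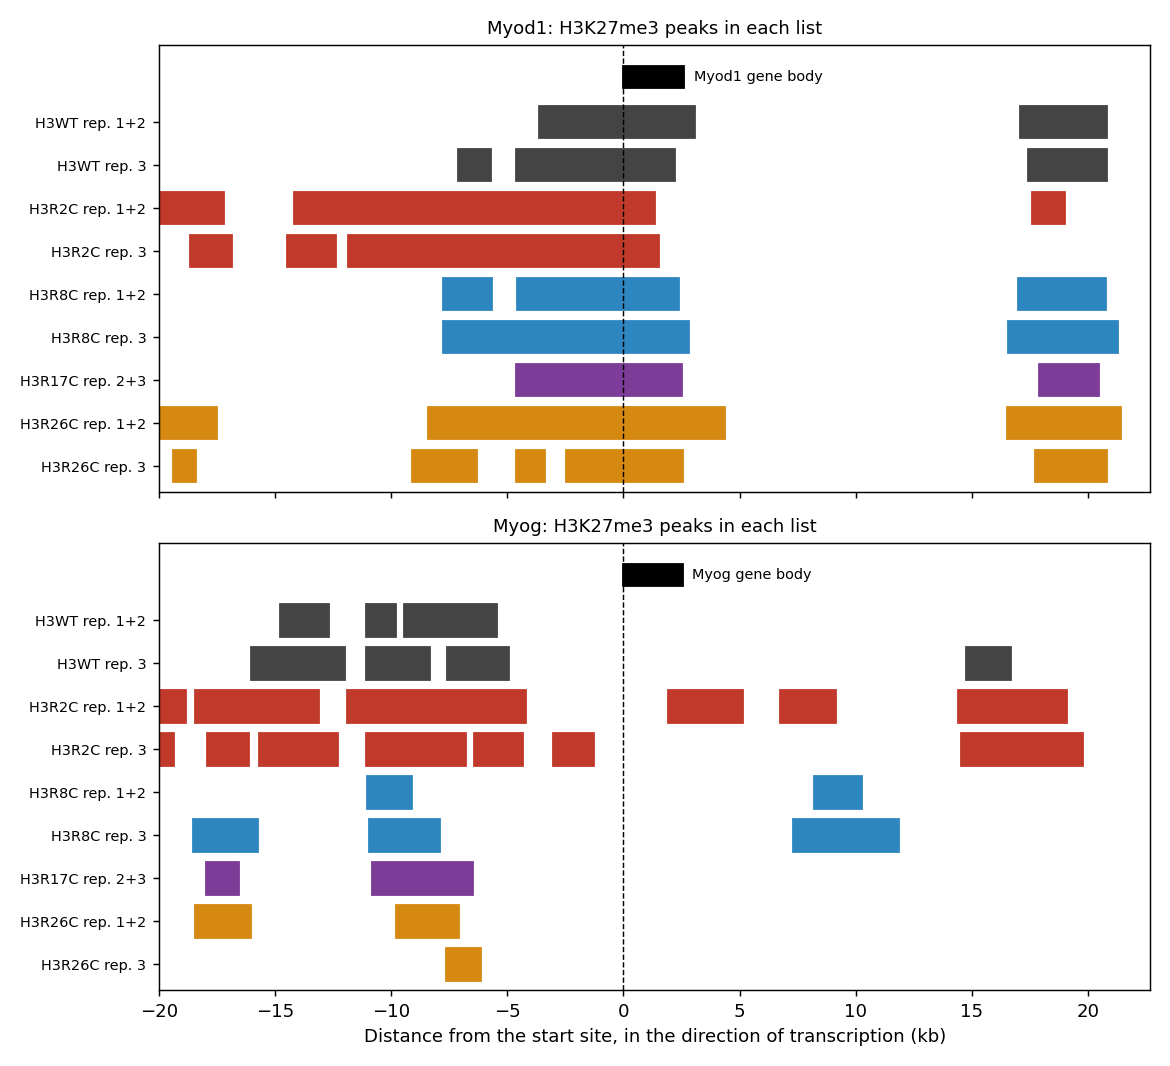
H3K27me3 peaks (bars) in the 9 libraries around Myod1 (top) and Myog (bottom), by distance from the start site in kb, with colours for genotypes and bars clipped at the edges of the window. The bar over the Myod1 start reaches 14.2 and 11.9 kb upstream in the H3R2C libraries, and no bar lies over the Myog start.

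The extent of the peak over the Myod1 start differed between genotypes. Upstream of the start it reached 3.62 and 4.62 kb in H3WT, 14.2 and 11.9 kb in H3R2C, 4.57 and 7.77 kb in H3R8C, 4.62 kb in H3R17C, and 8.42 and 2.47 kb in H3R26C. Downstream it reached 3.08 and 2.23 kb in H3WT but 1.38 and 1.53 kb in H3R2C. The H3R2C peaks thus extended farther upstream and less far downstream than both H3WT peaks, with no overlap on either edge. The comparison of edges was chosen after these positions had been seen, and it has no test. Among 1161 genes with a start-site peak in all 4 of these libraries, 13.2% had the longer upstream reach in both H3R2C libraries, 24.0% had the shorter downstream reach, and 1.55%, or 18 genes, had both. At Myod1 the shorter H3R2C reach exceeded the longer H3WT reach by 7.25 kb, and at 6 of the 1161 genes this gap was larger.

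Relative to other regions of the same library, H3K27me3 signal over the whole Myod1 window was higher in H3R2C and in H3R26C than in H3WT. The unit here is the summed coverage of the called peaks in the window divided by the median of the same library over 5401 regions called in every list. A change shared by those regions is removed by this scale, so a rise here is not a rise in absolute amount. The paper reports decreased H3K27me3 signal at consensus peaks in both mutants. Scaled Myod1 signal is given next. This signal was 1.34 and 1.59 in H3WT, 2.29 and 2.68 in H3R2C, 2.18 and 2.03 in H3R8C, 1.57 in H3R17C, and 2.74 and 3.49 in H3R26C. Both H3R2C and both H3R26C libraries stood above all H3WT, H3R8C and H3R17C libraries, and the H3R26C libraries above the H3R2C libraries.

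By limma across 8724 windows with a peak in at least 2 libraries, on log2(scaled signal + 0.25), Myod1 rose in H3R2C by 0.67 ± 0.18 (SE, adjusted p = 0.0288) and in H3R26C by 0.97 ± 0.18 (adjusted p = 0.0134). These comparisons share the H3WT libraries. Windows called higher made up 18.9% of all tested in H3R2C and 9.15% in H3R26C, so a call as such is common, more so in H3R2C. The difference between H3R2C and H3R26C at Myod1 did not pass the test (-0.29, 95% interval -0.72 to 0.13, adjusted p = 0.221). With both mutants set against H3WT and H3R8C, Myod1 was higher by 0.59 ± 0.12 (adjusted p = 0.0149), a call made in 18.0% of windows (1572 higher and 1283 lower, against 194 and 336 without scaling). H3R8C differed from H3WT by 0.46 (95% interval 0.04 to 0.88 before adjustment, adjusted p = 0.302) and H3R17C by 0.09 (-0.43 to 0.60, adjusted p = 1.0). H3R17C has 1 library, which is assumed to vary like the others.

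These calls depend on how libraries are put on a common scale and on few libraries. As deposited, the Myod1 window signal was 55450 and 67150 in H3WT, 124153 and 66600 in H3R2C, and 130946 and 63000 in H3R26C, so the ranges overlapped, and without scaling the adjusted p was 0.675 for H3R2C and 0.752 for H3R26C. In H3R2C, leaving out any H3WT, H3R2C or H3R8C library took the adjusted p above 0.05 (up to 0.129), and in H3R26C leaving out H3WT replicates 1 and 2 (0.0621) or H3R26C replicate 3 (0.0531) did. The maximum signal in the window gave no call in H3R2C (0.04, adjusted p = 0.959) or H3R26C (0.33, adjusted p = 0.341).

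The share of the Myod1 window covered by peaks was 24.5% and 27.3% in H3WT, 46.4% and 40.6% in H3R2C, 30.2% and 35.9% in H3R8C, 22.9% in H3R17C, and 47.3% and 31.0% in H3R26C. Across H3R2C and H3R26C it averaged 41.3% ± 7.52 (SD, n = 4) against 29.5% ± 4.86 (SD, n = 4) across H3WT and H3R8C. The difference of 11.9 percentage points did not pass a two-sided exact permutation test (p = 0.0571, with 0.0286 the smallest that 4 against 4 allows).

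**Figure D2:**
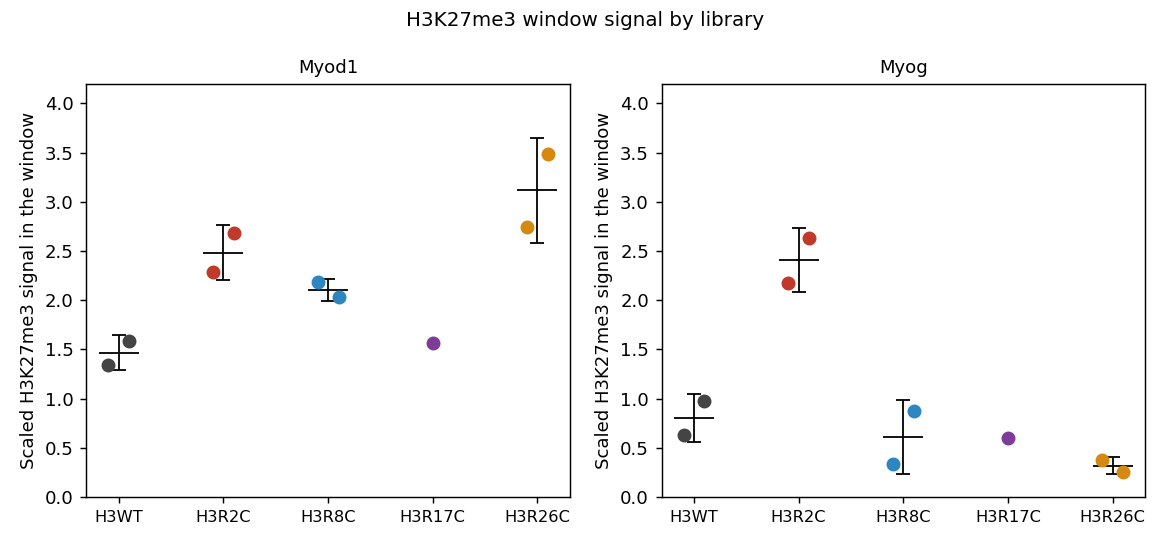
Scaled H3K27me3 signal (summed peak coverage in units of the library median over shared regions) in the Myod1 (left) and Myog (right) windows by genotype; points are libraries, and bars give the mean ± SD where a genotype has 2. H3R2C is high at both genes, with 2.29 and 2.68 at Myod1 and 2.18 and 2.64 at Myog, while H3R26C is high at Myod1 and low at Myog.

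The window was next divided at the start site, a step added after the peak positions had been seen. The peak over the Myod1 start was shared between the sides in proportion to its length on each. The values of each side thus follow the peak edges and are not coverage measured there. In the 20 kb before the Myod1 start, the scaled signal was 0.428 and 0.783 in H3WT, 1.97 and 2.42 in H3R2C, and 1.33 and 1.64 in H3R26C. In the 20 kb after it, the signal was 0.790 and 0.685 in H3WT, 0.321 and 0.256 in H3R2C, and 1.18 and 1.56 in H3R26C. H3R2C was therefore above H3WT on the upstream side and below it on the downstream side, whereas H3R26C was above H3WT on both.

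Before the start, Myod1 signal rose in H3R2C by 1.54 ± 0.23 (adjusted p = 0.00539) and in H3R26C by 1.05 ± 0.23 (adjusted p = 0.0340), calls made in 14.1% and 6.31% of the 6042 windows tested. After the start, it fell in H3R2C by 0.88 on the log2 scale (adjusted p = 0.0189, a call made in 15.9% of 4915 windows), and the H3R26C value of 0.70 did not pass (adjusted p = 0.0608). H3R2C against H3R26C after the start gave -1.58 ± 0.20 (adjusted p = 0.00141, a call made in 22.2% of windows). Both a rise before and a fall after the start in H3R2C were called at 6 of 3665 genes tested on either side (0.164%), Myod1 among them. The signal as deposited kept the same order in H3R2C: before the start it was 106700 and 60241 against 17736 and 33062 in H3WT, and after it 17453 and 6359 against 32718 and 28956. For H3R2C, leaving out a library moved the adjusted p before the start between 0.0111 and 0.0482, and after the start between 0.0146 and 0.0927, lost without H3WT replicates 1 and 2 or either H3R2C library. The H3R26C call before the start was lost in 7 of 8 such fits (adjusted p 0.0352 to 0.133), all but that without H3WT replicate 3, and its deposited signals of 63614 and 29557 overlapped those of H3WT.

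Part of the downstream signal belongs to a neighbour. Kcnc1, which encodes a voltage-gated potassium channel, starts 20.0 kb downstream of the Myod1 start, inside the window. It had a start-site peak in 8 of 9 libraries, and H3R2C replicate 3 was without. In H3R2C replicates 1 and 2 that peak was 1.45 kb wide and ended 0.997 kb before the Kcnc1 start, while in the other 7 it ran 2.60 to 4.90 kb wide and crossed the start. The 20 kb before the Kcnc1 start are nearly the same stretch as the 20 kb after the Myod1 start and give no separate value. Over its own window, gene body included, Kcnc1 signal was higher than in H3WT both in H3R2C (0.52 ± 0.14, adjusted p = 0.0311) and in H3R26C (0.82 ± 0.14, adjusted p = 0.0105), and after its start it was higher in H3R2C (1.04 ± 0.29, adjusted p = 0.0362). As deposited, the peak near the Kcnc1 start held 22650 and 21100 in H3WT and 38300 and 20150 in H3R26C. In H3R2C it held 8350 in replicates 1 and 2 and was missing in replicate 3. All signal in the 20 kb after the Myod1 start was 32718 and 28956 in H3WT and 17453 and 6359 in H3R2C. The H3WT and H3R26C peaks run partly past those 20 kb. The fall after the Myod1 start in H3R2C thus takes in the narrower or missing Kcnc1 peak, and the share of each was not tested.

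**Figure D3:**
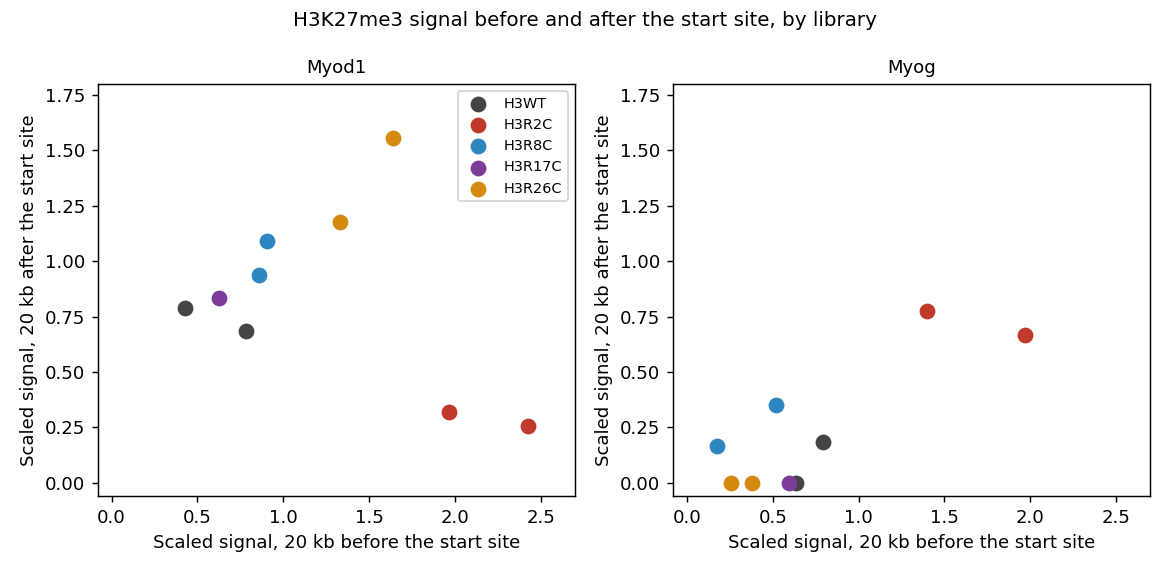
Scaled H3K27me3 signal in the 20 kb before (x axis) and the 20 kb after (y axis) the start sites of Myod1 and Myog; each point is a library, coloured by genotype. The H3R2C points lie at the lower right for Myod1 (1.97 and 2.42 before, 0.321 and 0.256 after) and at the upper right for Myog.

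Myog, the differentiation factor, was higher in H3R2C only among the genotypes tested against H3WT, and H3R2C and H3R26C differed there. The scaled window signal was 0.634 and 0.978 in H3WT, 2.18 and 2.64 in H3R2C, 0.340 and 0.872 in H3R8C, 0.595 in H3R17C, and 0.377 and 0.258 in H3R26C. The H3R2C libraries stood above all others, and the H3R26C libraries lay below H3WT, with H3R26C and H3R8C overlapping. The window held 6 and 7 peaks in H3R2C, 3 and 4 in H3WT, and 2 and 1 in H3R26C.

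In H3R2C, Myog rose by 1.35 ± 0.36 (adjusted p = 0.0318), and in H3R26C its value of -0.89 ± 0.36 did not pass (adjusted p = 0.137). H3R2C against H3R26C gave 2.23 ± 0.36 (95% interval 1.36 to 3.10, adjusted p = 0.00333), a call made in 27.9% of windows (2432 higher and 1637 lower, against 1266 and 524 without scaling), and it held in the 16 alternative settings in which Myog could be fitted and without each library in turn (adjusted p at most 0.0403). The rise in H3R2C against H3WT was lost without scaling (1.18, adjusted p = 0.304), with the maximum signal (0.34, adjusted p = 0.200), with a pseudocount of 0.05 (1.54, adjusted p = 0.0597) and with 10 kb on each side (0.94, adjusted p = 0.0541). It was also lost without either H3WT library, either H3R2C library or H3R26C replicate 3 (adjusted p up to 0.152). H3R8C (-0.36, adjusted p = 0.745) and H3R17C (-0.30, adjusted p = 0.941) did not pass, nor did both mutants against H3WT and H3R8C (0.41, adjusted p = 0.258).

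Around Myog the signal lay mainly upstream in H3WT, H3R2C, H3R17C and H3R26C. Before the start, the scaled signal was 0.634 and 0.792 in H3WT and 1.40 and 1.97 in H3R2C (1.00, adjusted p = 0.0706). After the start it was 0.0 and 0.186 in H3WT, 0.775 and 0.666 in H3R2C, and 0.0 in H3R17C and in both H3R26C libraries. In H3R8C the sides were closer, at 0.174 and 0.522 before and 0.165 and 0.350 after the start. The downstream rise in H3R2C passed the test (1.55 ± 0.33, adjusted p = 0.0152, a call made in 14.0% of windows), and it was lost without H3WT replicates 1 and 2 (adjusted p = 0.0579), H3R2C replicates 1 and 2 (0.0772) or H3R2C replicate 3 (0.0674). Those downstream peaks lie in part within Ppfia4, a liprin gene whose body overlaps the window and whose start lies 42.9 kb away. The share of the window covered was 57.7% and 45.3% in H3R2C and 3.52% to 26.8% in the other 7 libraries. Averaged over H3R2C and H3R26C it was 29.6% ± 25.99 (SD, n = 4) against 19.5% ± 7.83 (SD, n = 4), p = 0.457 by the exact permutation test.

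The nearest H3K27me3 peak to Myf5 lay 251 to 844 kb away, and to Myf6 243 to 835 kb. No genotype brought a called peak closer than that, so no fold can be given for this pair, and a signal below the level of the lists was not detectable.

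The HA lists show where peaks of tagged H3 were called. Myod1 had no HA peak in its window in any of 10 libraries, the nearest lying 95.2 to 482 kb away. Myog had HA peaks in its window in 6 of 10 libraries, none at the start site, covering at most 7.64% of the window. Of the 21938 gene windows, 15858 had an HA peak in at least 2 libraries. The lowest total signal in an HA list ran from 1350 to 43200. A window without an HA peak is thus below the level of that list and not shown to lack tagged H3. At Myf5 and Myf6, HA peaks were called in both H3R2C libraries and in no other, with scaled signals of 0.305 and 0.395 in each window. They are the same peaks for both genes. The pair entered the fit over 15858 windows, 11.1% of which were called higher in H3R2C, through the H3R2C libraries alone, so a difference was bound to appear and no test is given. Those peaks had total signals of 1600 to 3450, and the lowest total signal in the H3WT lists was 43200 and 6300, so the H3WT lists held no peak this weak anywhere. A difference in tagged H3 and a difference in the level of the lists cannot be told apart here.

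**Figure D4:**
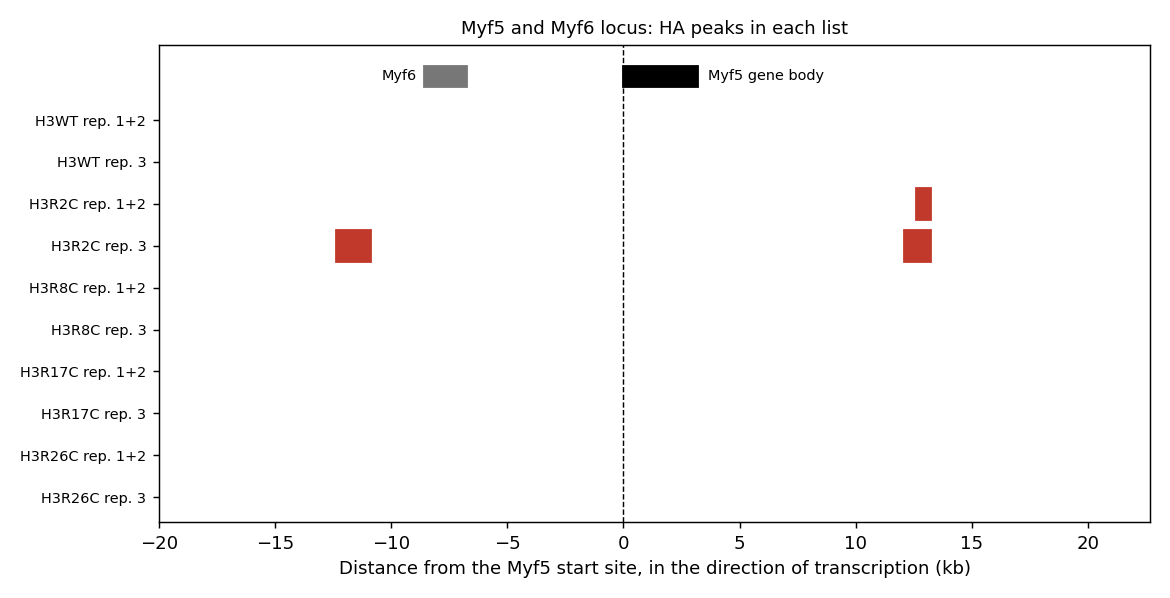
HA peaks (bars) around Myf5 and Myf6 in the 10 anti-HA libraries, by distance from the Myf5 start site in kb. Bars appear in the H3R2C libraries only, within 12.1 to 13.2 kb downstream of the Myf5 start in both and at 12.4 to 10.9 kb upstream in replicate 3.

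The wider myogenic circuit was read from lists of genes by role. Of 12 early regulators, which act upstream of the members in somites and limb buds, 8 were tested, and in H3R2C 6 were called lower and 0 higher, with a median of -1.09 against 0.11 over all windows, of which 13.1% were called lower. Pax7, the satellite cell factor, was at 6.13 and 7.34 in H3WT and 1.60 and 1.40 in H3R2C (-1.99 ± 0.20, adjusted p = 0.00128). Eya1, a transcriptional cofactor of homeodomain proteins, fell from 7.22 and 7.02 to no peak in either H3R2C library (adjusted p = 0.000467). Lbx1, needed by migrating limb precursors, fell by 1.08 (adjusted p = 0.00894). The direction at these genes was opposite to that at Myod1 and Myog in the same libraries.

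In H3R26C, 1 of the 8 early regulators was called higher and 2 lower, where 9.15% of all windows were called higher and 11.7% lower. Pitx3, a homeodomain factor, fell by 1.97 (adjusted p = 0.00311) and Eya1 fell by 1.43 (adjusted p = 0.0271), while Meox2, a limb muscle homeobox gene, rose by 1.78 (adjusted p = 0.0116). Meox2 was at 0.193 and 0.394 in H3WT and at 1.45 and 1.73 in H3R26C. The rise was not particular to H3R26C, since H3R8C was at 0.982 and 1.51. By limma, H3R8C against H3WT gave 1.46, which did not pass (adjusted p = 0.0776). Pax7 in H3R26C was at 5.78 and 8.50, which overlaps H3WT.

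Of 12 partners and cofactors, 5 were tested, and 4 of these had a peak in both H3R2C libraries and in no other library. They were Tcf3, the E-protein partner, Mef2a, the MADS-box partner, Rxra, a nuclear receptor, and Smarcd3, the remodeller subunit BAF60c, with signals of 0.136 to 0.340 in H3R2C. These signals are weak, and a signal below the level of a list is not seen in the other libraries. The 4 genes were tested only through the group where they are high, so no test is given, and such windows made up 344 of all 8724. The fifth, Mef2b, a further MADS-box gene, was not called (-0.17, adjusted p = 0.771). In H3R26C none of the 5 was called (0 higher, 0 lower), against 9.15% of all windows higher and 11.7% lower.

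Of 16 inhibitors of the members, 7 were tested and in H3R2C 0 were called by limma. Over all windows, 18.9% were called higher and 13.1% lower in H3R2C. Msc, which encodes the repressor MyoR, had a peak in H3R26C alone, at 1.38 and 1.67, and is given no test. Among the other 6, 2 were called higher in H3R26C and 1 lower. In that genotype 681 of the 8606 windows with peaks elsewhere too were called higher, and 11.7% of all windows lower. Id4, which sequesters E proteins, rose by 1.75 (adjusted p = 0.0340), from 0.540 and 0.323 in H3WT to 2.66 and 1.52. Mdfi, the MyoD family inhibitor, rose by 1.58 (adjusted p = 0.0357), from 0.0 and 0.179 in H3WT to 0.688 and 0.765. Twist2, a bHLH repressor, fell by 1.01 (adjusted p = 0.0351), from 0.205 and 0.310 in H3WT to no peak in either H3R26C library. The H3WT signals of Mdfi and Twist2 are weak, and a signal below the level of a list is not seen.

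Of 30 muscle targets, 14 were tested. In H3R2C, 3 of these had peaks in that genotype alone, and among the other 11, 2 were called higher and 0 lower. Of the 8380 windows with peaks elsewhere too, 1317 were called higher. The share of 18.9% over all windows also counts those with peaks in H3R2C alone. In H3R26C 0 of 14 were called in either direction, against 9.15% of all windows higher and 11.7% lower. Mymk, the fusion protein myomaker, was at 0.188 and 0.189 in H3WT and 4.26 and 4.62 in H3R2C (3.42 ± 0.63, adjusted p = 0.00871). Chrna1, the acetylcholine receptor alpha subunit, had no peak in H3WT and stood at 0.926 and 0.608 in H3R2C. The troponin genes Tnnt3 and Tnnc1 likewise had peaks in H3R2C alone, with signals of 0.156 to 0.308, and no test is given for these 3. The troponin signals are weak, and a signal below the level of a list is not seen. The second call was Cav3, which encodes caveolin-3 of the muscle membrane (1.06 ± 0.27, adjusted p = 0.0265), and it is named after its value was seen.

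**Figure D5:**
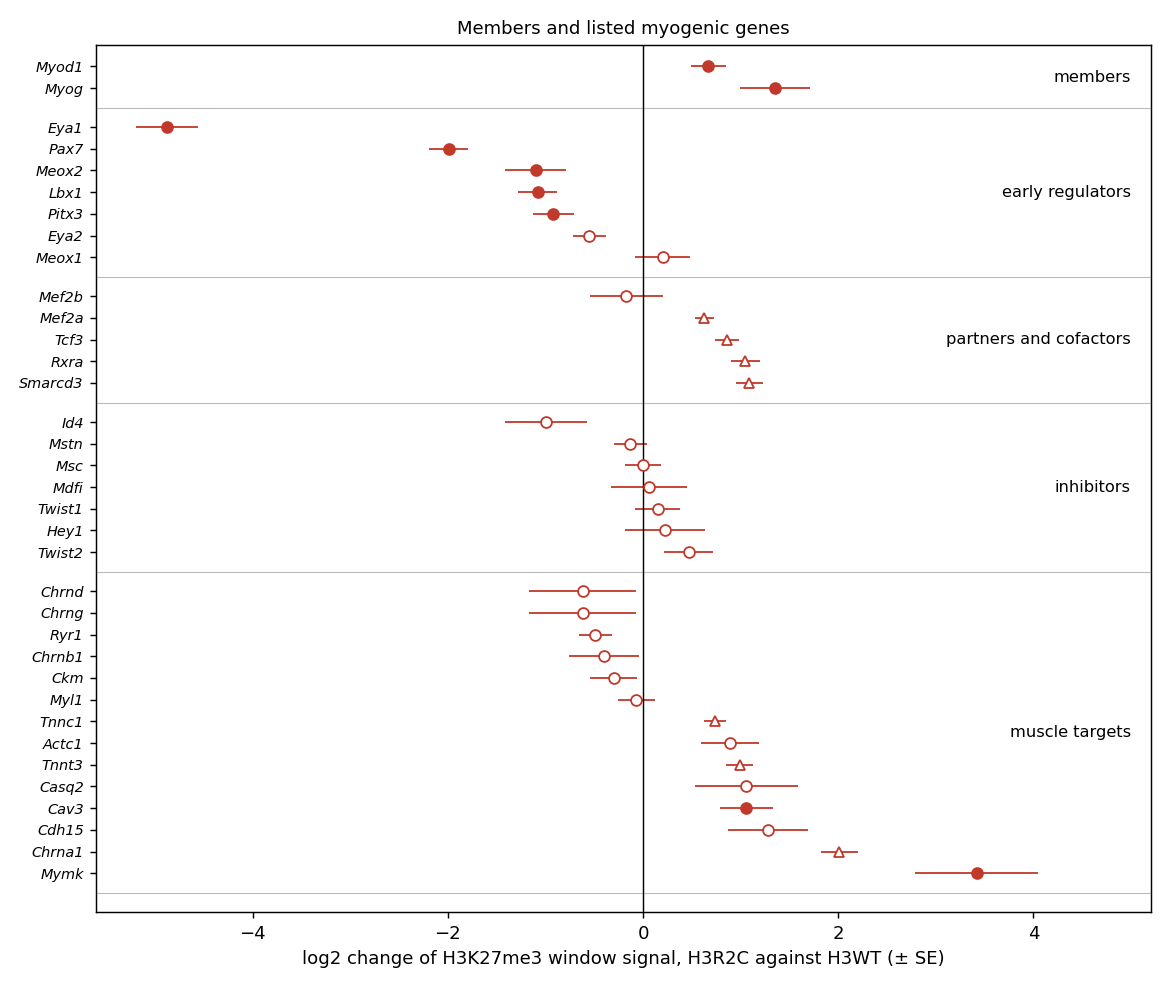
Change in H3K27me3 window signal in H3R2C against H3WT (log2, ± SE) for the members and listed myogenic genes that were tested; filled points passed an adjusted p of 0.05. Triangles mark genes with peaks in H3R2C alone, which are given no test. Both tested members lie right of 0, and 5 of the 7 early regulators drawn are filled and left of 0.

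Genes on other chromosomes whose signal over the 9 libraries was most like that of Myod1 were Gm7138 (Pearson r = 0.964), Lmx1b (0.961) and Gm4307 (0.955), out of 3685 windows with a peak in every library. For Myog they were Kcnn3 (0.985), 5330417C22Rik (0.978) and Lcn8 (0.978), out of 3691. The points share their libraries, and these are descriptions with no test.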

How the data were processed

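CUT&RUN was run by the authors on C3H 10T1/2 cells. Per the methods of the study, single-end reads were aligned by Rsubread (mm10), and SEACR 1.3 made the peak lists in its stringent, normalised mode, threshold 0.01, and the submitters' processing notes also name ChIPseeker 1.28.3 and DESeq2. The deposited lists give each peak's total and maximum signal (summed and highest coverage), in whole numbers not scaled to a common depth, on a 50 bp grid. Read filters are not given in the sources used here. Read totals were not used, so no counting interval is given. Groups came from sample titles. Samples with IgG or anti-H3K4me3 were not used here.

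Peak signal was summed over each window (GENCODE vM21 gene body with 20 kb on each side). The sum was divided by the library median over regions called in every list. A peak cut by a window edge, or by the start site where the window was divided, contributed in proportion to its overlap. Windows with a peak in at least 2 libraries were fitted with limma 3.58.1 (R 4.3.3, trended prior) on log2(signal + 0.25), all genotypes together, with Benjamini-Hochberg adjustment over all windows. Fold changes on that scale understate change at low signal. Coverage was compared by exact permutation (SciPy 1.17.1). The fit was tested on simulated data for windows with a peak in every library and changes of 2 on the log2 scale. Windows without a peak in some libraries, and changes as small as those called at the members against H3WT, were not simulated. Named genes were the members, coding genes starting in their windows, up to 4 per list with the lowest adjusted p under 0.05 in H3R2C or H3R26C against H3WT, and for each member the 3 genes with the most similar pattern. Members, lists and tests were chosen with earlier results of these data known. The division at the start site and the comparison of peak edges were added after the values were seen. Samples of 1 replicate number were not treated as paired, since correlations of their deviations ran from -0.047 to 0.306 over 6 pairs of genotypes. The values of 1 early regulator, which is counted in its list, and the sequence of 1 region are not reported here.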

Additional observations from a re-analysis of the deposited data

Results flagged for a closer look

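At Myog the H3R2C and H3R26C effects differed: the direct comparison in limma gave 2.23 on the log2 scale over the window (adjusted p = 0.00333), and 1.76 before (adjusted p = 0.00695) and 1.95 after the start site (adjusted p = 0.00404). The call before the start was lost without H3R2C replicate 3 (adjusted p = 0.0532) or H3R26C replicate 3 (0.0521). Both H3R2C libraries were above and both H3R26C libraries below the H3WT libraries over the whole window.

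At Myod1 the direct comparison after the start site gave -1.58 (adjusted p = 0.00141), with H3R2C at 0.321 and 0.256, below H3WT, and H3R26C at 1.18 and 1.56, above it. The stretch after the Myod1 start also holds the peak near the Kcnc1 start, which was narrower or missing in H3R2C. The values on either side of the start site were chosen for comparison after the peak positions had been seen.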

How the results depend on the processing

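Counts here are of members called by limma, of 4. In H3R2C against H3WT the 2 members called (Myod1 and Myog) became 1 with a pseudocount of 0.05 (Myod1) or with merged regions over the start site (Myod1; Myog has none and could not be fitted), and 0 with the signal as deposited, 10 kb on each side or the maximum signal, and ran from 0 to 2 with each library left out. In H3R26C the 1 called (Myod1) became 0 with the signal as deposited or the maximum signal and 2 with all labelled replicates, which counts identical lists more than once, and ran from 0 to 1 with libraries left out. In H3R8C, 0 became 1 with all labelled replicates. For H3R2C against H3R26C, 1 became 2 with all labelled replicates and 0 with merged regions. For both mutants against H3WT and H3R8C, 1 became 0 as deposited or with the maximum signal and 2 with all labelled replicates, and ran from 0 to 1 with libraries left out, lost without either H3R8C library. The HA difference at Myf5 and Myf6 is not counted as a result. The pair share the same HA peaks and entered the fit through the H3R2C libraries alone, so a difference was bound to appear. Neither gene was called with the upper 50% of each list or the same number of top peaks, and 1 was with 10 kb on each side. The coverage difference at Myod1 reached 14.4 percentage points (exact permutation p = 0.00433) with all labelled replicates. With 5 kb on each side, 3 libraries had a peak near the Myog start. The cause of these changes was not tested.

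Direction reversed for values that did not pass the test as reported. Myog in H3R8C became 0.27 with the upper 50%, 0.03 with 10 kb and 0.35 with 50 kb on each side, and ran from -0.82 to 0.11 with libraries left out. Myog in H3R17C became 0.65 with the upper 50% and 0.24 with 50 kb. Myod1 in H3R17C became -0.30 as deposited and ran from -0.02 to 0.20 with libraries left out, and from -0.25 to 0.37 before the start site. Myod1 in H3R2C against H3R26C became 0.13 with merged regions.

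Without scaling the median over all windows moved from 0.0 to -0.21 in H3R26C and to -0.31 in H3R17C against H3WT, and windows called in H3R2C went from 1648 higher and 1139 lower to 517 and 357, in H3R26C from 798 and 1025 to 61 and 106, and in H3R8C from 105 and 123 to 31 and 9. With the replicate number as a replicate block (H3R17C left out), H3R2C against H3WT still gave 2 calls, at 0.67 for Myod1 and 1.35 for Myog, and the block changed no other call of a member. In the labels, samples of 1 block share only a number. The paper speaks of replicate experiments, and whether a number marks a common experiment across genotypes is not given. Depth is not known from the lists, so weak signal below the level of a list is not seen.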
